A study of Mus musculus with 6 samples.

Results

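The maternal-effect genes examined here are 10 of the 51826 genes in the deposited count table, chosen by name as the subunits and partners of the subcortical maternal complex together with related genes whose products the egg passes to the embryo. The core subunits are Khdc3, Ooep, Nlrp5 and Tle6. Padi6, Zbed3 and Nlrp4f encode partners of the complex, and Nlrp14, Dppa3 and Dppa5a were added as a further NLRP gene and developmental pluripotency associated genes. Each was found by its Ensembl identifier, and all 10 had a row.

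Total RNA was sequenced from wild-type V6.5 cells, a mouse embryonic stem cell line, in 2 states with 3 libraries each. All cells were kept in Knockout DMEM with 15% serum. The embryonic stem cells (ESC) additionally received Lif, a cytokine, and 2i, a pair of GSK and MEK inhibitors that holds cells in naive pluripotency. The epiblast-like cells (EpiLC) came from the same line 3 days after Lif and 2i were withdrawn, per their labels, a step that takes cells toward the state of the early post-implantation epiblast. The labels name a single line and do not say whether the 3 libraries of a state came from separate cultures, so p-values measure only the spread between these samples, which may be technical.

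The subcortical maternal complex is a multiprotein assembly in the outer cytoplasm of the mammalian oocyte and early embryo. Its mRNAs are made while the oocyte grows, and female mice that lack Nlrp5, Ooep or Tle6 produce embryos that arrest in the first cleavages. In embryonic stem cells, Khdc3 and Ooep products have been linked to genome stability, and Dppa3 and Dppa5a are known as markers of pluripotent and germ cells.

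Library totals ran from 9710410 to 22879812 counts, and 14996 genes passed the filter on low counts. Of these, 9686 were called at an edgeR adjusted p under 0.05, with 4794 higher and 4892 lower in EpiLC. The state labels were matched by their markers, since 8 of 8 naive-state genes were called lower and 6 of 6 formative-state genes higher. The call of 1 formative-state gene was kept in 3 of the 6 fits that leave out a library, always with a positive log2 fold change. ESC replicate 3 stood apart from the other ESC libraries, differing from replicates 1 and 2 by a chi-square over its degrees of freedom of 28.7 and 29.0, where those 2 differed from each other by 2.75 and EpiLC pairs by 2.30 to 4.47. Results that turn on that library are given with and without it.

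Levels are given in CPM, read counts on TMM-scaled library totals. A count of 0 allows a true level of up to 3 counts, which is 0.135 to 0.301 CPM depending on the library, by counting error alone. Levels of different genes are compared only in RPKM, CPM per kilobase of annotated exon. A log2 fold change is EpiLC minus ESC, so a negative value is lower in EpiLC, and its standard error (SE) and 95% interval come from edgeR.

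The sequences upstream of the members' RefSeq starts are shown first, because the members that move together differ in the base composition of these windows. RefSeq promoter windows on GRCm38.p6 were matched by symbol for 7 of the 10 members, and not for Nlrp14, Dppa3 or Dppa5a. Each window held the 250 bases before a RefSeq start. That start lay inside the GENCODE gene by 562 bases for Khdc3 and by 173 and 3706 bases for Tle6. The printed Khdc3 and Tle6 stretches therefore lie within the annotated genes, between exons, and not upstream of them. The stretches printed, 5′ to 3′ on the gene's strand, are the longest run of each window outside GENCODE exons, and capitals mark matches to the searched motifs other than the E-box. The Khdc3 stretch covers chr9:73102205-73102397 on the forward strand, Ooep chr9:78378726-78378838 on the reverse strand, Tle6 chr10:81600901-81600978 on the reverse strand, Padi6 chr4:140742644-140742893 on the reverse strand and Zbed3 chr13:95323355-95323604 on the forward strand.
Khdc3: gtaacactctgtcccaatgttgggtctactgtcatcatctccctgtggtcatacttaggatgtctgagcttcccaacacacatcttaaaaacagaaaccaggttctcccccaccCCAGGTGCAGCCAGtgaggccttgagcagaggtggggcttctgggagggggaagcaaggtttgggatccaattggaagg
Ooep: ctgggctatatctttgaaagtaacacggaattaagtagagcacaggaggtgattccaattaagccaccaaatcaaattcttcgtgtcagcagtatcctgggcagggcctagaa
Tle6: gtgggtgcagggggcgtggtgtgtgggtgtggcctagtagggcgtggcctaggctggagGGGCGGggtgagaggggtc
Padi6: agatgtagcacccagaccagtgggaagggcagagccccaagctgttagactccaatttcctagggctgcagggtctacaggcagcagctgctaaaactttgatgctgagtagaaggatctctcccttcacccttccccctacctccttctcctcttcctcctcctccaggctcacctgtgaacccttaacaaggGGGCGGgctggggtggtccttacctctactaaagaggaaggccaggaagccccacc
Zbed3: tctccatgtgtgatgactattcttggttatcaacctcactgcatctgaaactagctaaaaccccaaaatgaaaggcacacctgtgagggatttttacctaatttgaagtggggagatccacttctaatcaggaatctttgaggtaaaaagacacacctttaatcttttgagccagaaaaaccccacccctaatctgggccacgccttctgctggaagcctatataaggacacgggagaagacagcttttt
The first 4 belong to genes called lower in EpiLC and the last to a gene called higher. The Nlrp4f window lay wholly in annotated exons and is not printed. The windows of Nlrp5, which was not tested, the second Tle6 window and 2 further Zbed3 windows were searched for motifs and are not printed either.

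Motifs were searched on both strands of the full windows. They were the nuclear receptor half-site AAGGTCA, the octamer ATGCAAAT, the TFCP2L1 pair (CCAG, any 6 bases, CCAG), the grainyhead site AACCGGTT, the GC box GGGCGG, the E-box CANNTG and the CRE TGACGTCA. The TFCP2L1 pair occurred in the Khdc3 window, starting 79 bases before the RefSeq start and overlapping an E-box, and 2.78% of the 32851 RefSeq windows of this length hold these letters. A GC box, present in 32.7% of all windows, stood 19 bases before the Ooep start in a part annotated as exon, 56 bases before the Padi6 start and 176 bases before the start of 1 of the 2 Nlrp5 windows. The Tle6 window printed in part above held 2 GC boxes, 143 and 19 bases before its start. At least 1 window of each of the 7 members held an E-box, as did 66.2% of all windows. A match is a description of the letters in the window and not a binding site.

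The windows of members called lower were not alike in CpG content. The Khdc3 window held 0 CpG dinucleotides and the Padi6 window 1, with observed over expected ratios of 0.0 and 0.05. The Nlrp4f window held 2, with a ratio of 0.22. Ooep held 11, with a ratio of 0.57. Tle6 had 2 windows, of which the one printed in part above held 17, with a ratio of 0.63, and the other 1, with a ratio of 0.05. The median over all 32851 windows was 6, with a ratio of 0.37, so these windows fell on both sides of it. All of them but the Padi6 window lay wholly or partly inside the annotated gene.

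**Figure D1:**
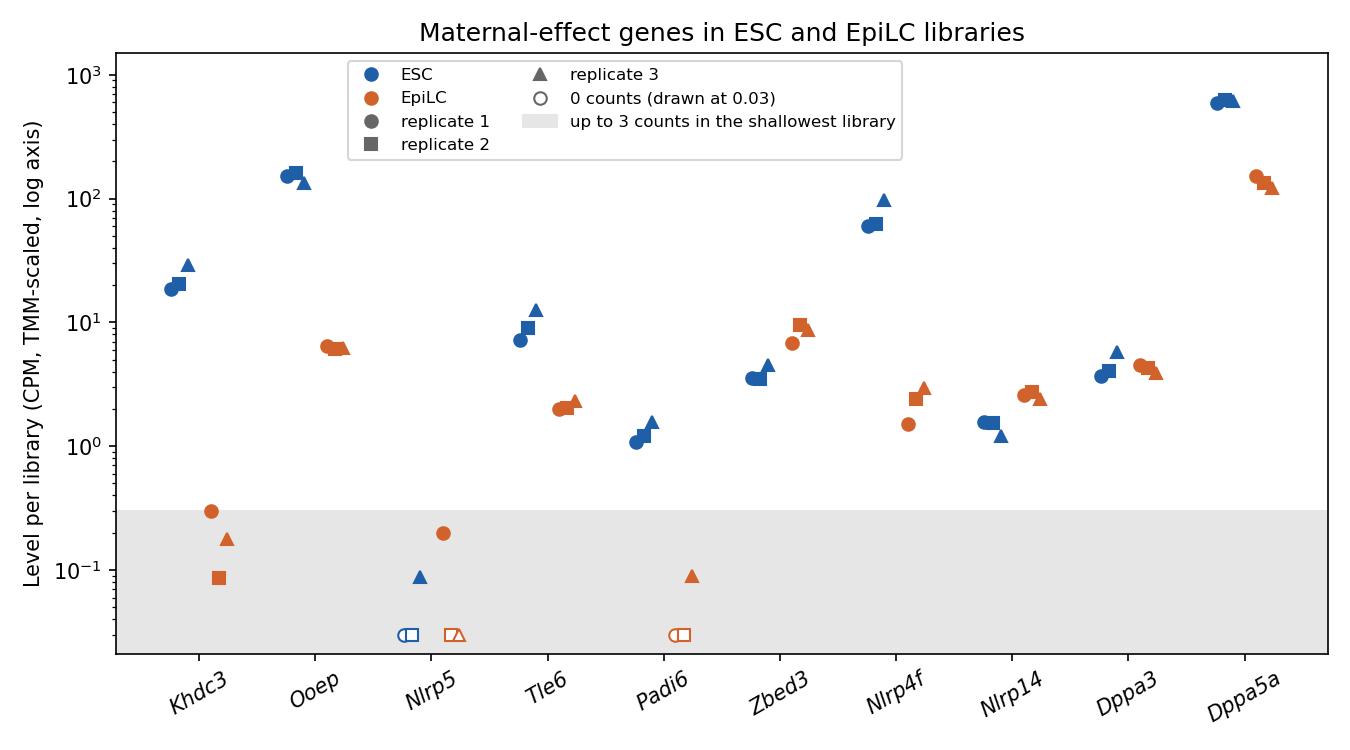
Level of each of the 10 genes in each of the 6 libraries, in CPM on a log axis, with ESC in blue, EpiLC in orange and the marker shape giving the replicate; the grey zone reaches 0.301 CPM, the level of 3 counts in the shallowest library, and open symbols are counts of 0 drawn at a fixed height. Khdc3, Ooep, Tle6, Padi6, Nlrp4f and Dppa5a lie lower in all EpiLC libraries, Zbed3 and Nlrp14 lie higher, and Dppa3 overlaps.

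Of the 10 genes, 9 passed the filter, 6 were called lower in EpiLC, 2 were called higher and 1 was not called. The background was high, with 64.6 percent of all tested genes called in either direction, 32.6 percent lower and 32 percent higher. Each of the 6 lower genes differed at least 4-fold, a change that 5.69 percent of tested genes showed, although Tle6 fell under 4-fold without ESC replicate 3, at a log2 fold change of -1.96. Groups did not overlap for 8 of the 9 tested genes, against 70.2 percent of all tested genes. The median log2 fold change of the 9 was -2.18 and that of all tested genes 0.01. Khdc3 and Padi6 passed the filter through their ESC libraries alone, so the counts over tested members describe these genes and support no statement about the list.

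**Figure D2:**
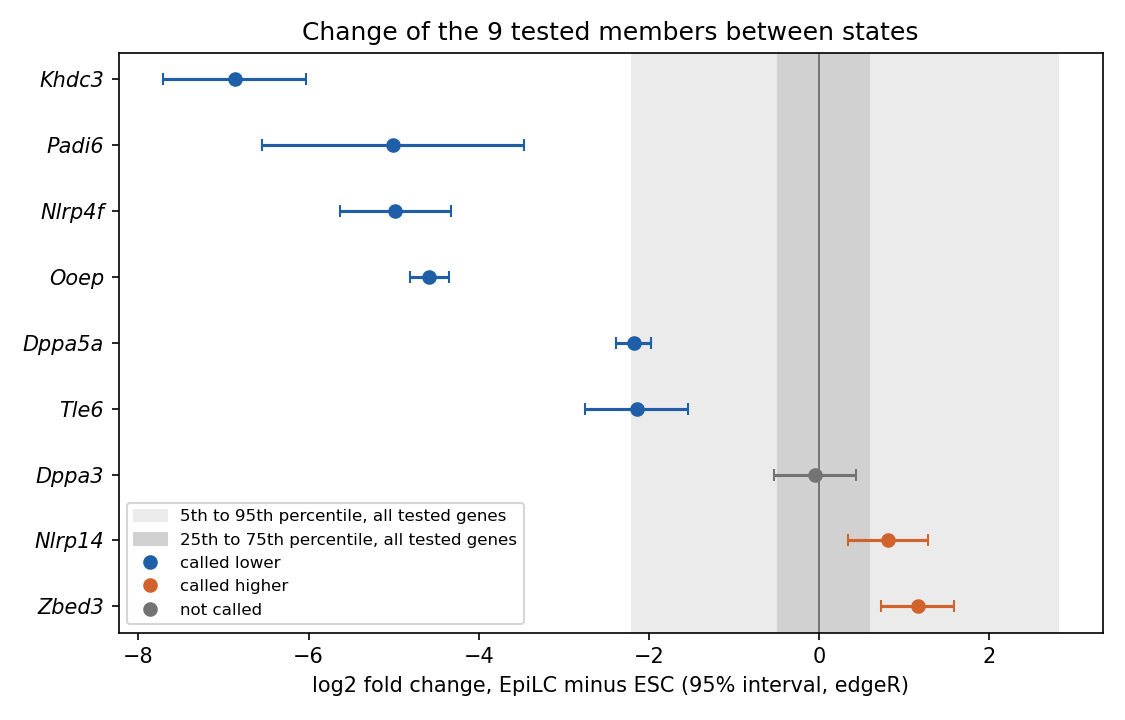
Log2 fold change, EpiLC minus ESC, of the 9 tested genes with 95% intervals from edgeR, with the light and dark grey bands spanning the 5th to 95th and 25th to 75th percentiles of the 14996 tested genes. Khdc3, Padi6, Nlrp4f and Ooep lie below -4, outside the light band, while the Dppa5a and Tle6 intervals cross its lower edge at -2.20.

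Khdc3 encodes Filia, a KH-domain core subunit of the complex. The gene (ENSMUSG00000092622) is annotated at chr9:73101836-73104438 on the forward strand in GENCODE M21, on GRCm38. Its ESC levels were 18.5, 20.5 and 28.8 CPM, and its EpiLC levels 0.301, 0.0855 and 0.179 CPM, from 3, 1 and 2 counts. ESC replicate 3 was the highest, and every EpiLC library lay at or under the level of 3 counts. The level fell 117-fold (log2 fold change -6.87, SE 0.37, 95% interval -7.71 to -6.03, edgeR adjusted p = 1.24e-06), and 63 of the 14996 tested genes had a more negative value. The ratio of summed counts per scaled total, 1141 in ESC against 6 in EpiLC, was 118 with a 95% counting interval of 54.0 to 322. Khdc3 shares 790 exon bases with Gm20509 on the same strand, which held 0 counts in every library, and how reads in the shared part were assigned is not given.

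Ooep encodes Floped, a KH-like core subunit that oocytes need to assemble the complex. It (ENSMUSG00000032346) lies at chr9:78376109-78378725 on the reverse strand. ESC libraries held 151, 160.3 and 135 CPM and EpiLC libraries 6.42, 6.07 and 6.16 CPM. The EpiLC values were closely spaced, with a mean of 6.22 ± 0.18 CPM (SD, n = 3), and replicate 3 was the lowest of the ESC values. The level fell 23.9-fold (log2 fold change -4.58, SE 0.10, 95% interval -4.81 to -4.35, edgeR adjusted p = 3.98e-08). Unlike Khdc3, Ooep remained above the counting limit in each EpiLC library, with 64, 71 and 69 counts.

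Nlrp5 encodes Mater, an NLRP protein and a core subunit. It (ENSMUSG00000015721) is annotated at chr7:23385889-23441922 on the forward strand. It held 0, 0 and 1 counts in ESC and 2, 0 and 0 in EpiLC, did not pass the filter and was not tested. Both groups were at or under the limit of 3 counts over the group, 0.0567 CPM in ESC and 0.0913 CPM in EpiLC, so no fold is given and a difference was not detectable at this depth. Its pseudogene Nlrp5-ps, named after its values were seen, is 97.8% identical to Nlrp5 over 688 aligned bases and held more reads, at 1.08 ± 0.14 CPM in ESC and 3.31 ± 0.24 CPM in EpiLC. Nlrp5-ps was called higher in EpiLC (log2 fold change 1.64, SE 0.21, edgeR adjusted p = 0.000194). Of the 50-base windows in Nlrp5 transcripts, 6.55% also occurred in other annotated genes, so reads from such windows cannot be assigned by sequence.

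Tle6 encodes a Groucho-family co-repressor that is a core subunit. It (ENSMUSG00000034758) lies at chr10:81590904-81601073 on the reverse strand. ESC libraries held 7.26, 9.06 and 12.6 CPM and EpiLC libraries 2.01, 2.05 and 2.32 CPM. The groups did not overlap, and the ESC values spread more widely than the EpiLC values, with replicate 3 the highest. Tle6 was 4.42-fold lower (log2 fold change -2.14, SE 0.26, 95% interval -2.75 to -1.54, edgeR adjusted p = 0.000167). All 3 EpiLC libraries retained 20 to 26 counts.

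Among the partners, Padi6 encodes an oocyte peptidylarginine deiminase family protein found in the cytoplasmic lattices of the egg. It (ENSMUSG00000040935) lies at chr4:140727355-140742643 on the reverse strand. ESC libraries held 1.09, 1.22 and 1.57 CPM, from 21, 27 and 18 counts, and EpiLC libraries held 0, 0 and 1 counts. The ratio of summed counts per scaled total, from 66 counts against 1, was 41.0 with a 95% counting interval of 7.10 to 1642. The edgeR call was lower in EpiLC (log2 fold change -5.01, SE 0.70, 95% interval -6.55 to -3.47, adjusted p = 0.000115). Without EpiLC replicate 3, which holds the single count, the fitted value was -7.24 and depended on the prior count, though the call was unchanged (edgeR adjusted p = 0.00194).

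Nlrp4f encodes an NLRP partner of the complex. It (ENSMUSG00000032999) lies at chr13:65177111-65205977 on the reverse strand. ESC libraries held 59.9, 62.6 and 97.6 CPM, and EpiLC libraries 1.51, 2.39 and 2.95 CPM. ESC replicate 3 was again the highest, and the lowest ESC library still exceeded the highest EpiLC library. The level fell 31.5-fold (log2 fold change -4.98, SE 0.28, 95% interval -5.63 to -4.33, edgeR adjusted p = 2.43e-06). Of its 50-base windows, 5.95% were shared with other annotated genes, among them Nlrp4g and Nlrp4a, and Nlrp4g held at most 2 counts in any library.

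Zbed3 encodes a BED-type zinc finger protein that binds Axin and takes part in the asymmetric placing of the complex in eggs. It (ENSMUSG00000041995) lies at chr13:95323612-95337841 on the forward strand. ESC libraries held 3.53, 3.47 and 4.53 CPM, and EpiLC libraries 6.83, 9.58 and 8.75 CPM. The groups did not overlap, and this partner was higher in EpiLC. The rise was 2.24-fold (log2 fold change 1.16, SE 0.19, 95% interval 0.73 to 1.59, edgeR adjusted p = 0.000738). Zbed3 thus moved in the opposite direction to Padi6 and Nlrp4f. The snoRNA genes Snora47 and Gm22661 lie within it on the same strand with 0 shared exon bases.

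Nlrp14 encodes an NLRP protein expressed in oocytes and in the testis. It (ENSMUSG00000016626) lies at chr7:107166990-107198102 on the forward strand. ESC libraries held 1.56, 1.53 and 1.22 CPM, from 30, 34 and 14 counts, and EpiLC libraries 2.61, 2.74 and 2.41 CPM, from 26, 32 and 27 counts. The groups did not overlap, with ESC replicate 3 the lowest. The log2 fold change was 0.81 (SE 0.20, 95% interval 0.35 to 1.28, edgeR adjusted p = 0.00774), 1.76-fold higher. DESeq2 gave the same direction, with a log2 fold change of 0.81, and did not call it (adjusted p = 0.0694).

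Dppa3 encodes Stella, which protects DNA methylation of the maternal genome in the zygote and restrains Uhrf1. It (ENSMUSG00000046323) lies at chr6:122626410-122630272 on the forward strand. ESC libraries held 3.68, 4.06 and 5.75 CPM, and EpiLC libraries 4.52, 4.28 and 3.93 CPM. The groups overlapped. The log2 fold change was -0.04 (SE 0.21, 95% interval -0.53 to 0.44, edgeR adjusted p = 0.861), and it turned to 0.11 without ESC replicate 3. A change inside that interval cannot be told from none with these libraries. Of its 50-base windows, 16.5% were shared with other genes, mainly Dppa3-ps, which held 0, 0 and 3 counts in ESC and 0 in each EpiLC library.

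Dppa5a encodes a KH-domain RNA-binding protein of pluripotent cells. It (ENSMUSG00000060461) lies at chr9:78367052-78368177 on the reverse strand, 7.93 kb from Ooep. ESC libraries held 596, 629 and 613 CPM and EpiLC libraries 151, 133 and 121 CPM. The ESC values were tight, and ESC replicate 3 lay between the others. The level fell 4.53-fold (log2 fold change -2.18, SE 0.09, 95% interval -2.38 to -1.98, edgeR adjusted p = 4.54e-07). Of its 50-base windows, 38.6% occurred in 9 other annotated genes. Without Pigp those copies held 21 to 33 counts in ESC and 2 to 3 in EpiLC, against 7037 to 13959 and 1358 to 1558 for Dppa5a, and Pigp itself was not called (log2 fold change 0.35, edgeR adjusted p = 0.127).

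The 10 genes differed widely in level within a state. In ESC, mean levels in RPKM were 989.7 ± 26.8 for Dppa5a, 69.6 ± 6.05 for Ooep, 19.0 ± 5.44 for Nlrp4f, 11.02 ± 2.68 for Khdc3 and 5.04 ± 1.23 for Dppa3 (SD, n = 3). Tle6 at 3.13, Zbed3 at 1.72, Padi6 at 0.51, Nlrp14 at 0.41 and Nlrp5 at 0.0060 RPKM followed. Neighbours in this order did not overlap over the 3 libraries except Padi6 and Nlrp14. Khdc3 shares 790 of its 2050 exon bases with Gm20509. If reads there were dropped, its RPKM is too low and its place below Nlrp4f is not settled.

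In EpiLC the order was different. Dppa5a stayed first at 219 RPKM, and Dppa3 at 4.75 and Zbed3 at 3.76 RPKM stood above Ooep at 2.91 RPKM. Nlrp14 at 0.73, Tle6 at 0.69 and Nlrp4f at 0.59 RPKM followed. Over their libraries, Nlrp14 overlapped Tle6 and Tle6 overlapped Nlrp4f. Khdc3 followed at 0.092 RPKM, and Nlrp5 at 0.014 and Padi6 at 0.012 RPKM overlapped. Dppa3, Zbed3 and Nlrp14 therefore ranked higher among the members in EpiLC than in ESC, while Ooep, Nlrp4f, Khdc3 and Padi6 ranked lower and Tle6 kept its place.

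Dppa5a dominated the summed level of the 10 genes in both states. It took 89.5% to 90.2% of the members' summed RPKM in ESC libraries and 93.5% to 94.9% in EpiLC libraries. Ooep took 5.70% to 6.65% in ESC and 1.17% to 1.38% in EpiLC. The Dppa5a level in RPKM was 13.6 to 15.7 times the Ooep level in ESC and 68.0 to 81.4 times in EpiLC, and these ranges of the 2 nearby genes did not overlap between the states. These libraries are bulk RNA, in which fewer cells expressing a gene and less RNA per cell cannot be told apart.

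Within the ESC group, the members did not deviate alike in replicate 3. On a log2 scale with 0.1 CPM added, replicate 3 lay above the mean of replicates 1 and 2 by 0.67 for Nlrp4f, 0.63 for Tle6, 0.57 for Khdc3, 0.56 for Dppa3, 0.41 for Padi6 and 0.36 for Zbed3. It lay at -0.21 for Ooep and -0.32 for Nlrp14, below that mean, and at 0.00 for Dppa5a. The median absolute deviation of this kind over all tested genes was 0.25. Ooep and Dppa5a thus had the steadiest ESC levels among the tested members, with coefficients of variation of 8.69% and 2.70%, and the members' calls were 6 lower and 2 higher with and without this library.

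The genes around the members did not all follow them. Within 100 kb, 36 other tested genes lay near tested members, of which 4 were called higher, 19 lower and 13 not, beside 32 percent higher and 32.6 percent lower over all tested genes. Their median log2 fold change was -0.33. Among the 19, Platr28 and Padi4 would not have passed the filter on their EpiLC libraries alone, so the counts support no statement about the regions. Around Ooep and Dppa5a, the RNA helicase gene Ddx43, 17.1 kb from Ooep, was called lower (10.6 ± 1.42 CPM in ESC against 4.89 ± 0.82 CPM in EpiLC, log2 fold change -1.09, edgeR adjusted p = 0.000748). Mto1 was called lower too, at -0.62, while Cgas at -0.36 and Eef1a1 at -0.06 were not called. Among these tested genes, Ooep and Dppa5a changed most.

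**Figure D3:**
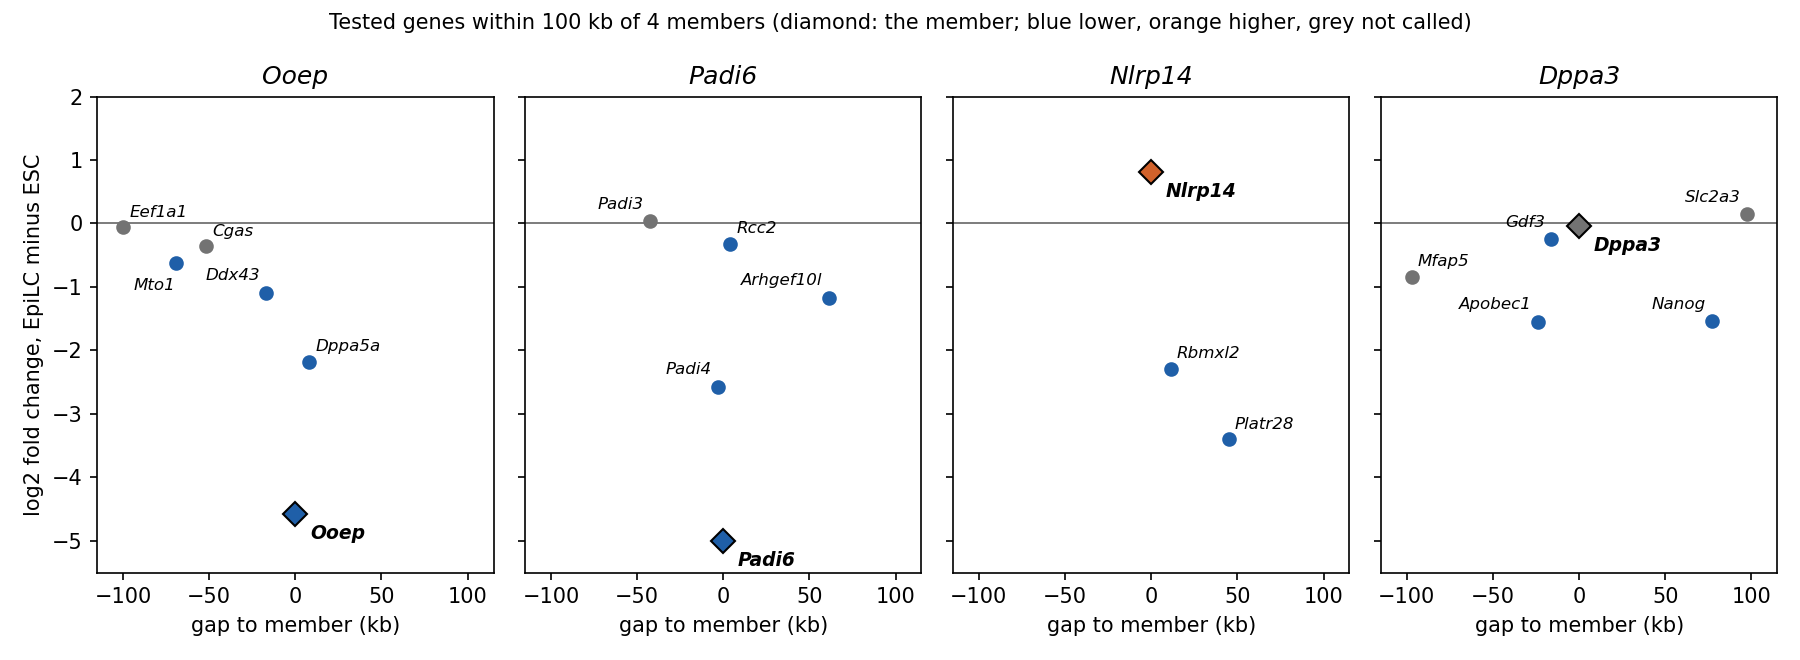
Log2 fold change, EpiLC minus ESC, of tested genes within 100 kb of Ooep, Padi6, Nlrp14 and Dppa3, against the gap between gene bodies in kb along the chromosome (negative upstream of the member on its own strand). Diamonds mark the member and colours the call. Nlrp14 at 0.81 stands above Rbmxl2 at -2.29 and Platr28 at -3.40, and Dppa3 at -0.04 above Nanog at -1.54. Platr28 passed the filter through its ESC libraries alone.

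Padi6 lies in the Padi gene cluster. Its neighbour Padi4, an arginine deiminase gene 3.22 kb away on the same strand, was called lower at -2.57 (5.53 ± 0.59 CPM in ESC against 0.92 ± 0.20 CPM in EpiLC, edgeR adjusted p = 2.71e-05). Padi3, 42.7 kb away, held 6.26 CPM in ESC and 6.41 CPM in EpiLC and was not called. Padi1, in the same family, held 10, 12 and 7 counts in ESC and 0 in every EpiLC library, at least 6.0-fold lower against 3 counts over the group, and was not tested. Nlrp14, which was called higher, had Rbmxl2 11.3 kb away at -2.29 and Platr28 44.9 kb away at -3.40, both called lower. Platr28, at 0.57 ± 0.17 CPM in EpiLC, passed the filter through its ESC libraries alone, so its direction supports no statement about that region. Near Dppa3, the naive and core pluripotency gene Nanog was called lower at -1.54, Apobec1 at -1.55 and Gdf3 at -0.25, while Slc2a3 and Mfap5 were not called. Dppa3 itself, in the midst of these genes, was not called. Around Tle6, 5 of 8 tested neighbours were called lower, beside 32.6 percent of all tested genes. Among them Tle5 (annotated as Aes), another Groucho-family gene, was at -2.65.

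Further genes of the same families, functions or names were read from the same fit. Of 10 other oocyte NLRP genes, 2 passed the filter and 3 were at 0 in all libraries. Nlrp4a was called lower, from 30, 44 and 68 counts in ESC to 0, 1 and 2 in EpiLC (log2 fold change -4.82, SE 0.97, edgeR adjusted p = 0.00147). The ratio of its summed counts per scaled total was 29.4, with a 95% counting interval of 9.85 to 144. The fitted value was -4.18 without ESC replicate 3, which holds the highest level at 5.92 CPM against 1.56 and 1.98, and -5.71 without EpiLC replicate 3, and the call held in both fits. Nlrp4c was called higher, from 0.17 to 1.18 CPM (log2 fold change 2.74, edgeR adjusted p = 0.000559). Nlrp4a, like Nlrp4f, was highest in ESC replicate 3, and the transcripts of both were 82.1% identical over 3194 aligned bases. Nlrp4a and Nlrp4c each passed the filter through the state in which they are higher, so their directions support no statement about the NLRP genes.

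Of 23 other maternal-effect genes, 18 were tested, 2 were called higher, 7 lower and 9 not, and the median log2 fold change of the 18 was -0.21. Beside these counts, 32 percent of all tested genes were called higher and 32.6 percent lower. Tcl1, an AKT co-activator, fell most, from 85.3 ± 12.6 to 0.444 ± 0.242 CPM (log2 fold change -7.52, edgeR adjusted p = 1.72e-07). Tcl1 passed the filter through its ESC libraries alone, so its direction supports no statement about the list. Zfp57, which protects imprint methylation, was lower at -2.57 and Uhrf1, the DNA methylation maintenance partner that Dppa3 restrains, at -1.23. Rlim, an E3 ubiquitin ligase of X inactivation, was higher at 1.69. Tet3, the zygotic 5-methylcytosine oxidase, was called higher at 0.81, a call kept in 1 of the 6 fits that leave out a library, the one without ESC replicate 3.

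A list of 17 genes held relatives of the members by protein family, and Dppa2 and Dppa4, which are related by name only. Of the 17, 11 were tested, 0 were called higher and 6 lower, with a median log2 fold change of -0.29. Over all tested genes, 32 percent were called higher and 32.6 percent lower. At an unadjusted p under 0.05 in edgeR, and by DESeq2, the number higher was also 0. Among Tle relatives of Tle6, Tle5 was lower at -2.65, Tle4 at -0.56 and Tle3 at -0.43, and Tle1 held 43.5 CPM in ESC and 44.1 CPM in EpiLC without a call. Padi4 and Padi2 were lower, at -2.57 and -1.96. Padi4 held 11, 11 and 8 counts in EpiLC and would not have passed the filter on those libraries alone. Its direction therefore supports no statement about the list. Dppa2, at 23.4 and 22.1 CPM, was not called and Dppa4 was lower at -0.29, a call kept in 2 of the 6 fits without a library. The difference between these genes and Dppa5a was not tested.

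**Figure D4:**
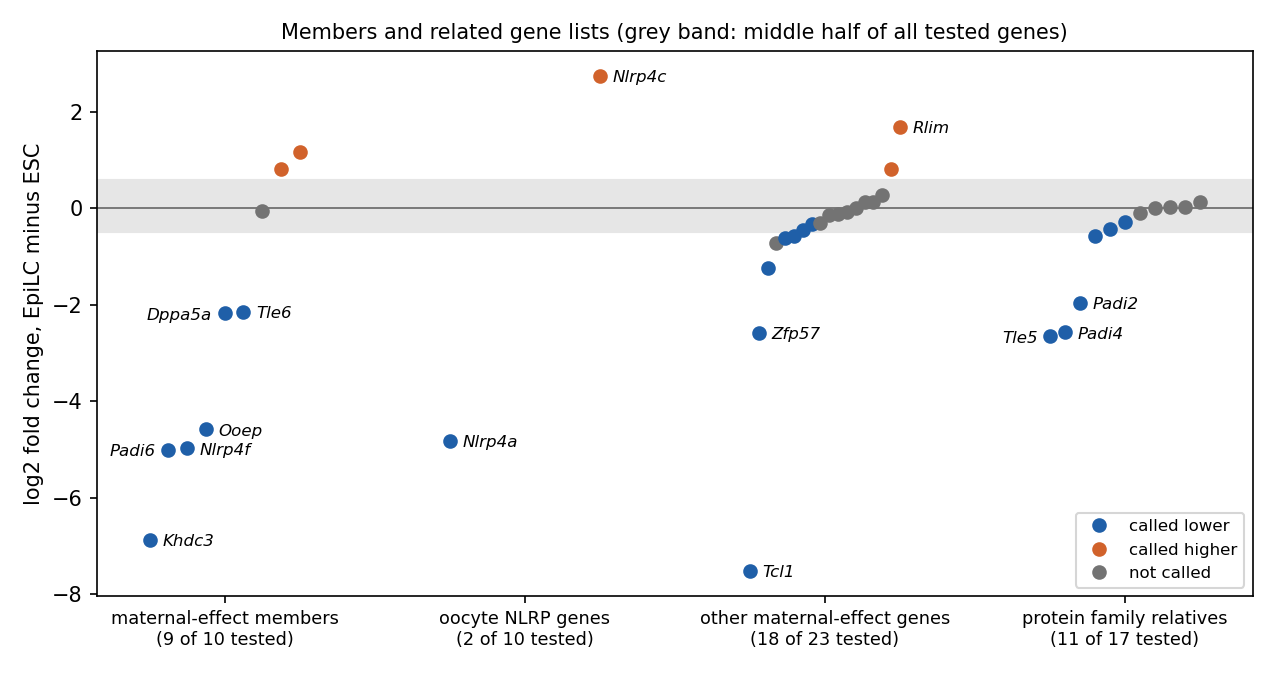
Log2 fold change, EpiLC minus ESC, of tested genes in the members' list and in 3 related lists, with blue called lower, orange called higher and grey not called, and a grey band for the 25th to 75th percentile of all tested genes (-0.48 to 0.59). Of the 9 tested members 8 lie outside the band, and among the 18 other maternal-effect genes Tcl1, Zfp57, Uhrf1 and Rlim changed by more than 1 log2 unit.

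The genes most like each tested member were sought over the 6 libraries by Pearson's r of log2 CPM, among tested genes with a mean of at least 10 CPM. With 2 groups of 3 points and a pool of many genes, r was near 1 in nearly every case and describes only the shape over these libraries. The closest to Ooep was Idh3b (r = 0.9999), a subunit of mitochondrial isocitrate dehydrogenase, followed by the non-coding RNA gene Lncenc1 (r = 0.9998). The closest to Khdc3 were Bicral and Crot, to Tle6 Pacsin2 and Rest, and to Nlrp4f Arid5b and Grtp1. For Dppa5a they were Stk38 and Os9, and for Dppa3, which was not called, Polb (r = 0.996).

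Markers of other cell types were read beside the members. The counts of called markers stand beside 32 percent higher and 32.6 percent lower over all tested genes. A marker can pass the filter through 1 state alone, so these counts support no statement about the lists. Of 11 oocyte markers, 1 passed the filter, Zp3, a zona pellucida gene, and it was called lower at -4.14 from 6.54 ± 0.62 to 0.362 ± 0.063 CPM. Zp3 passed through its ESC libraries alone, so its direction supports no statement about the oocyte markers. Zp2 and Oosp1 were at 0 in all libraries, and the summed level of the 11 was 7.06 to 8.07 CPM in ESC and 1.37 to 2.01 CPM in EpiLC. Without Zp3, the other 10 summed to 0.901 to 1.13 CPM in ESC and 0.941 to 1.71 CPM in EpiLC. Among them Figla, an oocyte transcription factor gene that was not tested, held 4, 2 and 0 counts in ESC and 10, 8 and 7 in EpiLC. Bmp15, also not tested, went the other way, with 8, 10 and 6 counts in ESC and 0 in each EpiLC library. Of 10 markers of 2-cell-like cells, 7 were tested and 1, Zscan4a, was called lower at -0.96, with summed levels of 18.5 to 25.3 CPM in ESC and 17.4 to 24.3 CPM in EpiLC. Of 8 primordial germ cell markers, 5 were called lower and 1 higher, and their summed level was 244 to 329 CPM in ESC and 103 to 112 CPM in EpiLC. Of 8 fibroblast markers, 5 were tested, 3 were called higher and 1 lower, with summed levels of 10.1 to 13.8 CPM in ESC and 14.6 to 18.7 CPM in EpiLC. Among them Dcn, a matrix proteoglycan gene, held 0 counts in each ESC library and 40, 56 and 47 in EpiLC, while Lum and Postn held at most 1 count in any library. Dcn passed the filter through its EpiLC libraries alone, so its direction supports no statement about the fibroblast markers. Of 6 primitive endoderm markers, 4 were tested, 2 were called higher and 1 lower, with summed levels of 4.51 to 10.5 CPM in ESC and 16.3 to 19.2 CPM in EpiLC. Of these calls, 1 of those higher was kept in only 1 of the 6 fits that leave out a library. Of 6 trophoblast markers, 3 were tested, 1 was called higher and 1 lower, with summed levels of 44.0 to 58.1 CPM in ESC and 20.3 to 25.1 CPM in EpiLC. The trophoblast marker called lower was Tfap2c, which is also counted among the primordial germ cell markers. The part of such cells in the members' differences was not tested.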

How the data were processed

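Ribosome-depleted RNA (Trizol, Ribo-Zero Gold, Kapa stranded kit, per the labels' protocols) from 6 libraries was deposited by the authors as raw counts per Ensembl gene. Per the submitters' processing notes, the tools were cutadapt, STAR, featureCounts and DESeq2 on mm10. For the strand setting, annotation release and multi-mapping reads, the sources used here give nothing.

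Of 51918 rows, 92 spike-in rows with 0 counts were left out. Of 51826 genes, 193 had no GENCODE M21 symbol, with at most 0.033% of a library's counts. Groups came from the labels. Counts were tested with edgeR 4.0.16 in R 4.3.3 (quasi-likelihood, legacy option off, TMM scaling, filterByExpr at 10 counts per library and 15 in total), two-sided, with Benjamini-Hochberg adjustment over all tested genes and a threshold of 0.05. The code was tested on simulated data. CPM and RPKM were computed here from TMM-scaled totals and union exon lengths. Counting intervals are exact 95% Clopper-Pearson intervals, and with no molecular identifiers recorded they cover counting error only. Shared 50-base windows and blastn hits were taken over GENCODE M21 transcripts.

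Alternatives were other scalings, DESeq2 1.42.0, no filter or a stricter filter, leaving out each library and a replicate block. All 10 members are named, up to 4 called genes of each other list (by size of change, with 1 CPM or more on average in either group), uncalled list genes at that level, and neighbours within 100 kb. Nlrp5-ps, Pigp, Dppa3-ps, Nlrp4g, Gm20509, Tle3, Dppa4, Tet3, Padi1, Zp2, Oosp1, Figla, Bmp15, Lum and Postn lie outside this rule and were named after their values were seen. The members and lists were chosen with earlier results of these data known.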

Additional observations from a re-analysis of the deposited data

How the results depend on the processing

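Over 13 alternatives (3 scalings, DESeq2, 2 filters, 6 fits without a library and the replicate block), 113 of 117 recomputed fold changes kept their direction and side of the threshold, and 122 of 130 recomputed counts of calls stayed within 1.5 times. The log2 fold change of Dppa3, which was not called, changed sign, to 0.0034 (upper quartile scaling) and 0.024 (scaling by library totals), and it ran from -0.18 to 0.11 when a library was left out, positive without ESC replicate 3. The DESeq2 test called 1 member higher, since Nlrp14 (log2 fold change 0.81) had an adjusted p of 0.0694, within a range of 0.00498 to 0.0694 over its alternatives. The stricter filter called 0 of the oocyte NLRP genes higher, as Nlrp4c was not tested there. Other maternal-effect genes called higher numbered 1 to 4 when a library was left out, with 4 without ESC replicate 3 and 1 without any other library. Without a library, 4188 to 5815 genes were called higher and 4326 to 5915 lower, and the members stayed at 6 lower and 2 higher. Without ESC replicate 3, 11730 genes were called, 9656 of them shared with the 9686. The log2 fold change of Padi6 ran from -7.24 to -4.51 and that of Khdc3 from -7.32 to -6.52. Deviations from the group means gave r of -0.085, -0.0059 and -0.149 for same-numbered libraries and -0.131 to 0.142 for the other pairs. With 3 libraries per state, these values cannot tell whether same-numbered libraries were made together. The fit with the replicate block called 9231 genes, 9116 of them shared, with 6 members lower and 2 higher. Depth limits Nlrp5, Padi6 and the EpiLC level of Khdc3, which rest on a few counts.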
